A study of Mus musculus with 9 samples.

Results

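Solute carriers are the largest family of membrane transporters, and the genes described here are those whose transcripts reached a set level in the developing mouse knee. A member is a gene whose annotated symbol is Slc followed by a digit and that has a probe whose mean in the authors' deposited value table was at least 150 over the 3 meniscus arrays, at least 150 over the 3 articular cartilage arrays or at least 260 over the 3 cruciate ligament arrays. Of 356 such symbols on the array, which names 19057 genes, 62 were members after 8 symbols had been set aside by name (Slc2a1, Slc2a3, Slc16a3, Slc26a2, Slc35d1, Slc8a1, Slc4a1 and Slc9a3r1), 5 of which had also reached the level. The level in each tissue therefore chose the members and is given as a description.

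Tissue was taken from hindlimbs of the CD-1 strain at embryonic day 16 (E16), with no allele, treatment or agent named for any group. The groups were the meniscus (3 arrays), the articular cartilage (3 arrays) and the cruciate ligament (3 arrays), each measured from amplified total RNA on Illumina bead arrays. Whether a replicate stands for an animal, a pool or a repeated preparation is not stated, so each p-value reflects the spread among these samples alone, and that spread may be technical. In bulk tissue, fewer cells of a type and less RNA per cell cannot be told apart.

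Solute carriers move amino acids, metal ions, sugars, nucleotides, lipids and inorganic ions across the plasma membrane and across the membranes of organelles. Some work as exchangers, some are driven by the gradients of sodium or protons, and the mitochondrial carriers pass metabolites across the inner mitochondrial membrane. In cartilage and other connective tissue they are best known for supplying the Golgi with sulphate donors and nucleotide sugars for proteoglycans, and inherited loss of several of them causes skeletal or connective tissue disease in people.

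Quality differed between the tissues. Scanner signals had medians of 93.4 to 103.8 on the meniscus and cartilage arrays and of 147.4 to 209.7 on the ligament arrays, and the share of probes detected (detection p below 0.01) was 28.9% to 35.6% and 18.0% to 20.9%. The value table had medians of 99.9 or 100 on the meniscus and cartilage arrays and of 172.2 to 172.3 on the ligament arrays, so the ligament arrays had been normalized as a separate set. For comparisons with ligament, set and tissue cannot be told apart. The 11 tested chondrocyte markers had a mean normalized log2 level of 10.02 to 10.62 on the cartilage arrays, 7.70 to 8.38 on the meniscus arrays and 7.44 to 8.86 on the ligament arrays. The 7 tested ligament and tendon markers stood at 9.49 to 9.54 on the ligament arrays, 8.73 to 9.17 on the meniscus arrays and 8.24 to 8.64 on the cartilage arrays. The defining tendon gene Tnmd was not above background in any of the 3 tissues, and Scx was not above background in meniscus or cartilage. The 5 tested erythroid markers stood at 8.77 to 9.86 in ligament, 8.68 to 9.06 in meniscus and 7.59 to 8.30 in cartilage, and the 4 tested macrophage markers at 5.48 to 8.12, 6.44 to 8.0 and 5.11 to 5.53. The 7 tested endothelial markers stood at 5.10 to 6.22 in ligament, 5.60 to 6.59 in meniscus and 4.77 to 4.89 in cartilage. Of the 10 listed, 5 were above background on no cartilage array, 5 on no ligament array and 2 on no meniscus array. The erythroid, macrophage and endothelial lists were thus higher on every meniscus array than on every cartilage array. The part of these lists in the results was not tested.

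The start regions of 3 members are shown because each was called in a different comparison below: Slc1a4 between meniscus and cartilage, Slc35b2 between meniscus and ligament, and Slc11a1 between ligament and cartilage. Each window holds 300 bases and ends 50 bases past the gene's start (RefSeq, GRCm38.p6, 5′ to 3′ on the gene's strand), at chr11:20332664-20332963 (minus strand), chr17:45563686-45563985 (plus strand) and chr1:74374953-74375252 (plus strand). Capitals mark matches on either strand to GGGCGG, the core of a GC box, or to TGATGNAA, the core that ATF4 and C/EBP factors share.
Slc1a4: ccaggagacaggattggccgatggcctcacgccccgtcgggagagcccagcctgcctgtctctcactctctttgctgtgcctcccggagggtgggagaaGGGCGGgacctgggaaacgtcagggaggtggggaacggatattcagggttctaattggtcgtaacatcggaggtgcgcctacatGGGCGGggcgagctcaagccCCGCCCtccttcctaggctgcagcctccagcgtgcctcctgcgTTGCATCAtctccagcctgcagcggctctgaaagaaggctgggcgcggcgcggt
Slc35b2: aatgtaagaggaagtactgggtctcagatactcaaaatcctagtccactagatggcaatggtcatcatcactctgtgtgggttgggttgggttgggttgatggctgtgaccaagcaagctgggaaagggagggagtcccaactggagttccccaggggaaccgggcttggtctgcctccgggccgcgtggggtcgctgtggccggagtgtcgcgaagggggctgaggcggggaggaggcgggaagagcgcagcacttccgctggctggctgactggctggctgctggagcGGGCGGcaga
Slc11a1: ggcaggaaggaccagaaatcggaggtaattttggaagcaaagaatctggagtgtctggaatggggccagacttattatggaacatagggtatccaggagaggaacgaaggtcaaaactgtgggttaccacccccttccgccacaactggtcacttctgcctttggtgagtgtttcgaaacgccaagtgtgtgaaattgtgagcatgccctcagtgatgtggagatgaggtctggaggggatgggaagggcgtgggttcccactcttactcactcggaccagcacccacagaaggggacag
The Slc1a4 window held 3 matches to GGGCGG and 1 to TGATGNAA, which was on the opposite strand, the Slc35b2 window held 1 match to GGGCGG, and the Slc11a1 window held neither. Of the members, 50 matched the RefSeq promoter table, with 67 windows. GGGCGG was present in 49 of those windows (73.1%) and in 35.7% of all 32851 windows, and TGATGNAA in 2 (2.99%) and in 3.97%. TATAAA, the core of a TATA box, was present in 5 member windows (7.46%) and in 13.6% of all windows. Member windows held a median of 20 CpG dinucleotides and all windows a median of 7. The members had been chosen for their level, while all windows had not, and windows of other expressed genes were not set beside them. These shares therefore do not set solute carriers apart from other expressed genes. No searched motif contains another.

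Most members reached the level in every tissue. Of the 62 members, 35 reached it in all 3 tissues, 12 in meniscus and cartilage, 6 in cartilage alone, 4 in meniscus alone and 3 in ligament alone, with Slc12a3 in cartilage and ligament and Slc26a7 in meniscus and ligament. By tissue, 52 members reached it in meniscus, 54 in cartilage and 40 in ligament. Just inside the meniscus level were Slc18a2 at 151.6, Slc31a1 at 154.8 and Slc39a10 at 156.0, and just outside it were Slc25a20 at 145.3, Slc9a3r2 at 148.9 and Slc18b1 at 149.1. Just inside the cartilage level were Slc39a1 at 151.6, Slc2a10 at 152.4 and Slc12a3 at 153.5, and just outside it were Slc2a13 at 144.2, Slc6a8 at 146.3 and Slc38a1 at 149.4. Just inside the ligament level were Slc35a4 at 261.3, Slc25a16 at 263.2 and Slc12a3 at 265.0, and just outside it were Slc19a2 at 253.7, Slc35e3 at 255.9 and Slc25a3 at 258.6. Slc18b1, Slc38a1, Slc19a2, Slc35e3 and Slc25a3 were members through another tissue.

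By substrate class, assigned from the symbol, 13 members were of the Slc25 family of mitochondrial carriers (among them Slc25a17, which lies in the peroxisome). There were 13 metal ion transporters, 10 genes of amino acids and peptides and 9 of the Slc35 family of nucleotide sugar and related transporters. Another 5 were of lipids and choline, 4 of sodium, potassium, chloride, bicarbonate and protons and 4 of vitamins, nucleosides and organic ions. The last were 3 of sugars and carboxylates and 1 of inorganic anions. A class assigned in this way does not establish what each member carries, as for Slc10a7 among lipids and choline. Slc7a6os bears the prefix only because it lies opposite Slc7a6, and it is not a transporter. A probe of the gene was detected on all 3 arrays for 60 members in meniscus, 59 in cartilage and 35 in ligament. In ligament no probe was detected on any array for 8 members: Slc10a7, Slc18b1, Slc25a14, Slc25a44, Slc27a6, Slc2a10, Slc39a10 and Slc41a2.

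**Figure D1:**
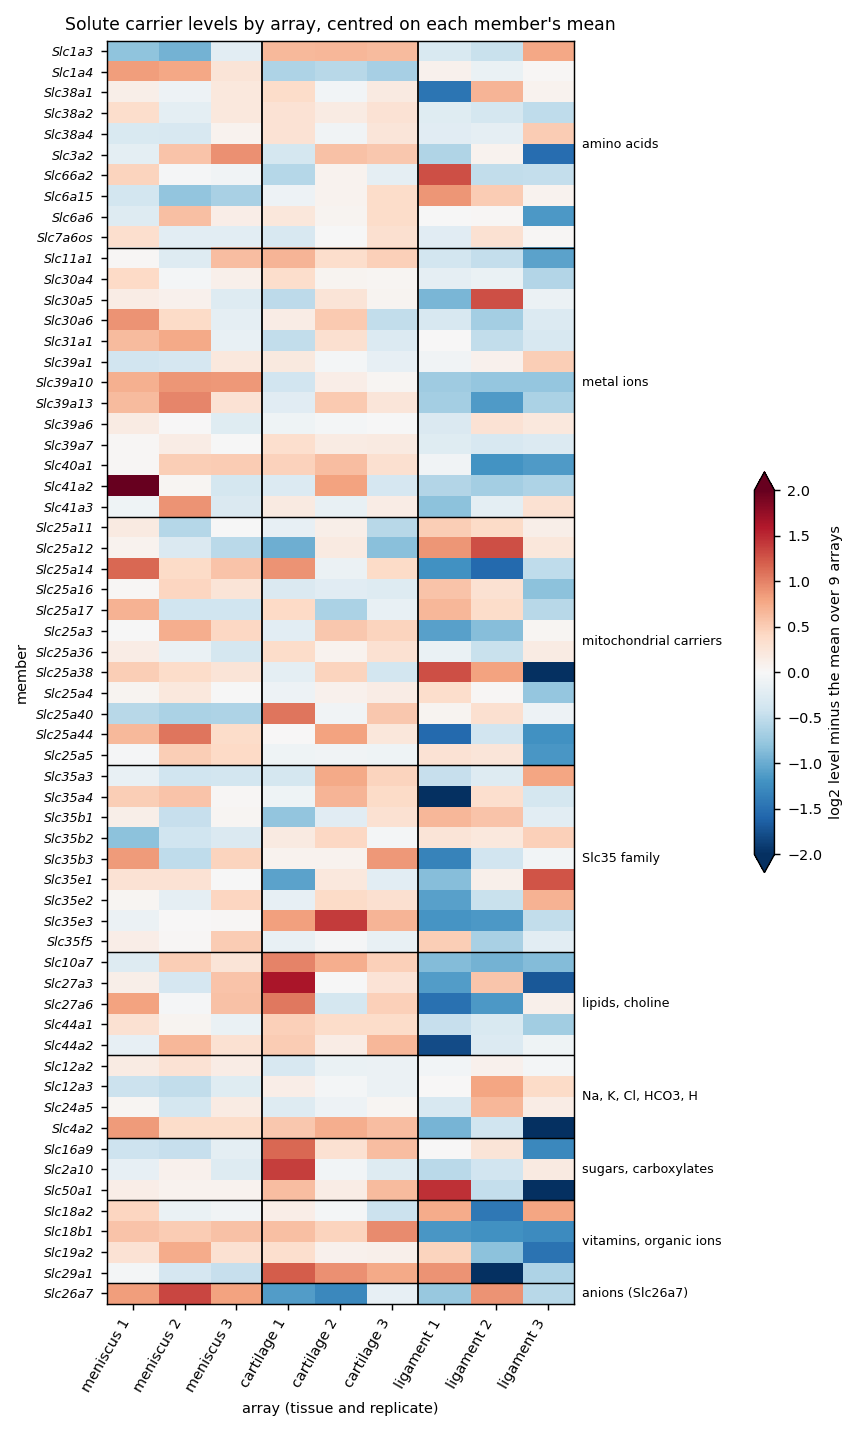
Normalized log2 level of the 61 tested members (rows, grouped by substrate) on the 9 arrays (columns), each centred on that member's mean over the arrays, with red above and blue below that mean and the colour scale ending at 2 in each direction. The ligament columns differ more from each other than the meniscus or cartilage columns do, with a median within-tissue SD of 0.56 in ligament against 0.29 in meniscus and 0.28 in cartilage.

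The comparisons asked whether the transcripts of carriers of each substrate differed between these 3 tissues of the knee. Levels below are background-corrected, quantile-normalized log2 intensities of the gene's brightest detected probe, given for replicates 1 to 3 in order, and levels of different genes are not compared because probes differ in brightness. The threshold for a call was an adjusted p of 0.05 (limma, Benjamini-Hochberg over 9166 features). Of the 62 members, 61 passed the detection filter and were tested. A member that reached the level in only 1 of the 2 tissues compared had been chosen for being high there, so its values are given with no p, and counts are read over the other members. Differences from ligament are given relative to the median named gene, which was 0.27 higher in meniscus than in ligament and 0.23 lower in ligament than in cartilage (log2). The tests were made on the differences before that scaling, so each p belongs to the unscaled difference.

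Between meniscus and cartilage, 1 carrier was called, the amino acid exchanger Slc1a4, which was higher in meniscus. It was the single call among 49 members read (2.04%), against 0.655% of all features, and the median difference of those members was 0.03 against 0.01 over all features. The meniscus and cartilage ranges were separate for 13 of the 49 (26.5%), with 5 higher and 8 lower in meniscus, and for 26.2% of all features (13.6% higher and 12.6% lower). Without adjustment, p was under 0.05 for 5 of the 49 (10.2%) and for 11.3% of all features. Between meniscus and ligament 4 of 42 members were called (9.52%), 2 higher and 2 lower in meniscus, against 12.7% of all features (9.15% higher and 3.56% lower), and 13 had separate ranges (31.0%, against 32.5%), 10 of them higher and 3 lower in meniscus (against 23.2% and 9.31% of all features). The 2 called higher in meniscus, Slc10a7 and Slc18b1, were above background on no ligament array. They passed the detection filter through the other tissues, which favoured that direction. Between ligament and cartilage 2 of 40 were called, both lower in ligament (5.0%, against 16% of all features called in either direction, 11.7% lower and 4.37% higher in ligament). Of the 40, 12 had separate ranges (30%, against 34.9%), 3 higher and 9 lower in ligament (against 10.1% and 24.7% of all features). These shares lie near or below those of all features in both comparisons with ligament, and the share for meniscus against cartilage rests on 1 gene. The spread was shared over the 3 tissues in the fit, while the median SD over all features stood at 0.49 for ligament and at 0.25 for both other tissues. Adjusted p-values of comparisons with ligament may therefore be too low, and those between meniscus and cartilage too high.

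**Figure D2:**
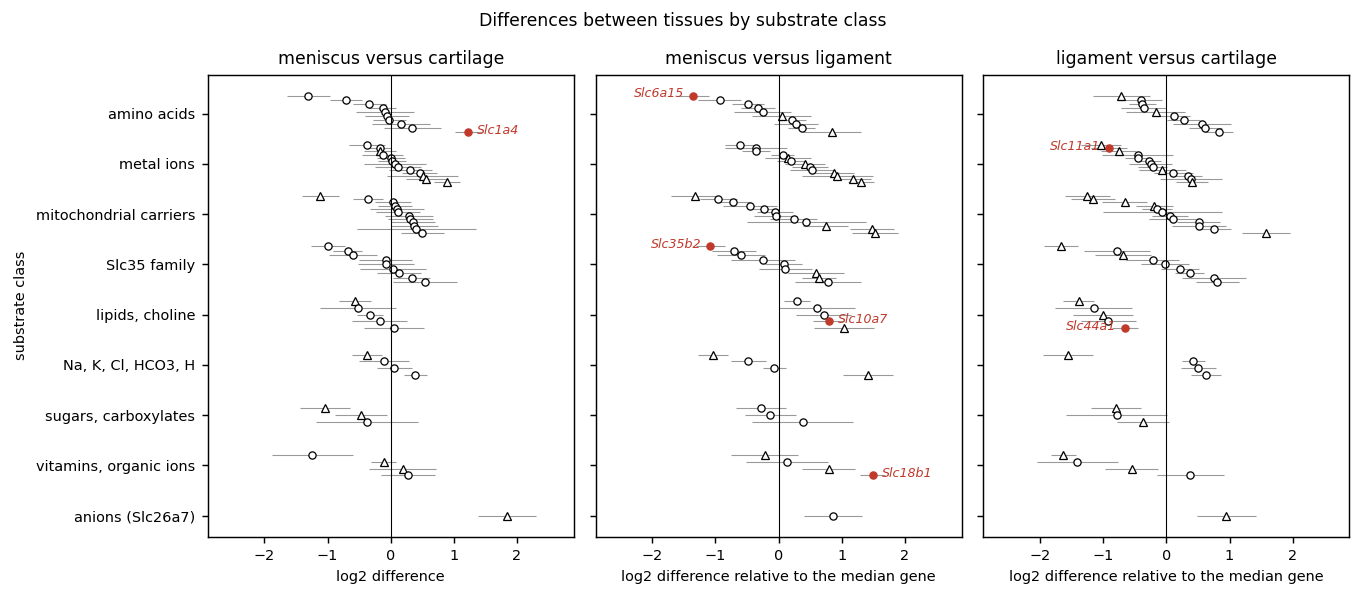
Log2 difference of each tested member in the 3 comparisons (x axis, relative to the median named gene in both comparisons with ligament) by substrate class (y axis), with lines for 1 SE. Filled red points are the called members among those read (Slc1a4, then Slc6a15, Slc35b2, Slc10a7 and Slc18b1, then Slc11a1 and Slc44a1), open circles the other members read, and triangles the members that reached the level in only 1 of the 2 tissues. Members not above background in ligament, Slc18b1 and Slc10a7 among them, are drawn at their measured difference. Points of every class with more than 1 member lie on both sides of 0 in at least 1 comparison.

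Amino acid carriers held the call between meniscus and cartilage. Slc1a4, an exchanger of alanine, serine, cysteine and other small neutral amino acids, stood at 9.04, 8.98 and 8.47 in meniscus, at 7.60, 7.65 and 7.55 in cartilage and at 8.30, 8.07 and 8.23 in ligament. Every meniscus array lay above every ligament array, and every ligament array above every cartilage array. Slc1a4 was higher in meniscus than in cartilage by 1.23 ± 0.21 (log2, SE, n = 3 arrays a tissue), which is 2.35-fold (limma, Benjamini-Hochberg adjusted p = 0.0445). Relative to the median gene it was 0.36 higher in meniscus than in ligament and 0.83 higher in ligament than in cartilage, and neither difference was called (limma adjusted p = 0.0854 and 0.0881). The call between meniscus and cartilage was lost without any 1 of the meniscus or cartilage arrays or without ligament replicate 2, with adjusted p reaching 0.216 over the alternatives.

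Slc1a3, a sodium-driven glutamate and aspartate transporter, ran the other way. It stood at 6.57, 6.43 and 7.17 in meniscus, at 8.02, 8.05 and 8.01 in cartilage and at 7.07, 6.93 and 8.16 in ligament. All cartilage arrays lay above all meniscus arrays, and the ligament arrays reached from the meniscus range to above the cartilage range. The difference between meniscus and cartilage was -1.30 ± 0.34 (log2, SE) and was not called (limma adjusted p = 0.146). It was called under 5 of 19 alternatives, among them without ligament replicate 3.

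Slc6a15, which carries branched-chain amino acids and proline, was lowest in meniscus. Its levels were 8.0, 7.59 and 7.73 in meniscus, 8.27, 8.43 and 8.73 in cartilage and 9.25, 8.88 and 8.44 in ligament. The meniscus arrays did not overlap with either other tissue, while those of cartilage and ligament overlapped. The tested difference between meniscus and ligament was -1.09 ± 0.26 (log2, SE, limma adjusted p = 0.0275). Relative to the median gene it was -1.35, or 2.56-fold lower in meniscus. The adjusted p was above 0.05 without any 1 of the meniscus arrays and without cartilage replicate 2, with 0.0964 the highest over the alternatives. A second detected probe of Slc6a15, above background on 1 ligament array, stood at 5.94, 6.02 and 6.19 in meniscus and at 5.45, 4.74 and 6.49 in ligament, which is a difference in the opposite direction. The change between meniscus and cartilage was -0.71 and was not called (limma adjusted p = 0.336).

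The remaining amino acid genes gave no call in any comparison in which they were read. Across the 10 genes of the class the differences between meniscus and cartilage ran from -1.30 to 1.23, with 3 above 0 and 7 below. Slc38a4, a transporter of small neutral amino acids, stood at 8.61, 8.59 and 8.98 in meniscus, 9.21, 8.84 and 9.15 in cartilage and 8.69, 8.73 and 9.43 in ligament, so that all 3 tissues overlapped. Slc38a2, a sodium-coupled glutamine and alanine transporter, stood at 8.73, 8.18 and 8.60 in meniscus, 8.67, 8.55 and 8.67 in cartilage and 8.14, 8.03 and 7.88 in ligament. The ligament arrays of Slc38a2 lay below all others, and neither difference was called (limma adjusted p = 0.161 against meniscus and 0.0785 against cartilage), while of its other 2 detected probes 1 had differences of the same sign in every comparison and 1 of the opposite sign. Slc3a2, the heavy chain that carries several amino acid exchangers to the cell surface, reached the level in meniscus and cartilage and stood at 6.17, 6.94 and 7.29, at 6.02, 6.96 and 6.92, and at 5.77, 6.44 and 4.85 in meniscus, cartilage and ligament. Those ranges overlapped throughout. Slc6a6, the taurine transporter, Slc66a2, of the PQ-loop family, and Slc7a6os also had no call. The probe of Slc38a1 that was tested is not the probe that reached the level.

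**Figure D3:**
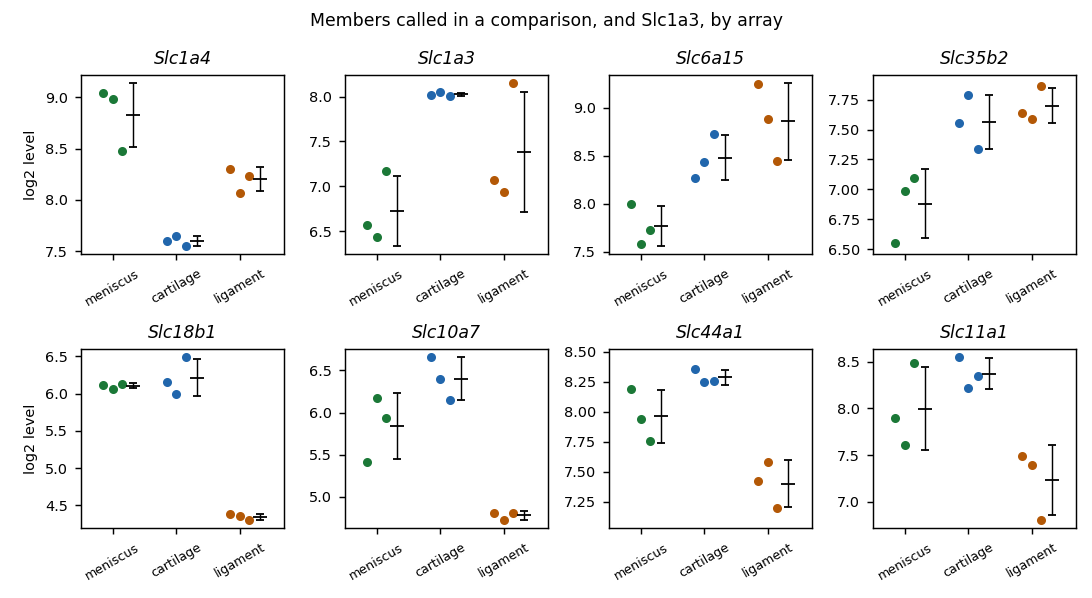
Normalized log2 level (y axis) of the 7 called members and of Slc1a3 on each array (points: 3 meniscus, 3 cartilage, 3 ligament), with the mean and SD beside the points and a separate y axis for each gene. The meniscus and cartilage points of Slc1a4 are separated by the ligament points, and the ligament points of Slc18b1 and Slc10a7 lie below all others.

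Of the 13 metal ion members, Slc11a1 was called, lower in ligament than in cartilage. Slc11a1 is a proton-coupled transporter of iron and manganese known from the phagosomes of macrophages. It stood at 7.89, 7.61 and 8.48 in meniscus, at 8.55, 8.22 and 8.34 in cartilage and at 7.49, 7.39 and 6.80 in ligament. The ligament arrays lay below all meniscus and cartilage arrays. The tested difference between ligament and cartilage was -1.14 ± 0.29 (log2, SE, limma adjusted p = 0.0286). Relative to the median gene it was -0.91, or 1.88-fold lower in ligament, and that smaller difference was not tested. The adjusted p rose above 0.05 without any 1 of the cartilage arrays or without ligament replicate 3, and reached 0.0911 over the alternatives. The 4 tested macrophage markers given above had array means of 5.48 to 8.12 in ligament and 5.11 to 5.53 in cartilage. Whether macrophages have a part in the level of Slc11a1 was not tested.

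No zinc importer of the Slc39 family was called where it was read. Slc39a6 stood at 10.55, 10.40 and 10.15 in meniscus, 10.30, 10.35 and 10.39 in cartilage and 10.10, 10.67 and 10.60 in ligament, and all 3 tissues overlapped. Slc39a7, which releases zinc from the endoplasmic reticulum and Golgi, stood at 7.97, 8.10 and 7.95 in meniscus, 8.29, 8.12 and 8.14 in cartilage and 7.72, 7.63 and 7.68 in ligament. No tissues overlapped for that probe and no difference was called (limma adjusted p = 0.810, 0.256 and 0.0868 for meniscus against cartilage, meniscus against ligament and ligament against cartilage). A second probe of Slc39a7 gave 6.92, 6.65 and 7.08 in meniscus, 8.46, 8.11 and 8.14 in cartilage and 8.05, 7.22 and 8.62 in ligament, so that its difference between meniscus and cartilage was -1.36 against -0.18 for the first. Its remaining detected probe differed by 0.02.

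Slc39a10, a zinc importer of the plasma membrane that reached the level in meniscus alone, stood at 6.13, 6.31 and 6.30 in meniscus, at 5.04, 5.56 and 5.46 in cartilage and at 4.72, 4.66 and 4.65 in ligament, where it was not above background. No tissues overlapped. Slc39a10 was at least 1.06-fold higher in meniscus than in ligament relative to the median gene, a bound set against the lowest signal of detected probes. Between ligament and cartilage, where it was above background on 2 of 3 arrays, no fold is given because the bound was under 1. Slc39a13, a zinc transporter whose loss causes a form of Ehlers-Danlos syndrome in people, stood at 7.05, 7.39 and 6.71 in meniscus, at 6.19, 6.93 and 6.65 in cartilage and at 5.74, 5.29 and 5.78 in ligament. The used probe of Slc39a13 was above background on no ligament array, and the gene was at least 1.85-fold higher in meniscus and at least 1.38-fold higher in cartilage than in ligament, relative to the median gene.

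Slc40a1, the iron exporter ferroportin, stood at 6.54, 7.01 and 7.02 in meniscus, at 6.98, 7.13 and 6.84 in cartilage and at 6.44, 5.32 and 5.38 in ligament. All ligament arrays lay below the others, and the gene reached the level in meniscus and cartilage only, so no p is given. Meniscus and cartilage overlapped for Slc40a1 and differed by -0.13 (limma adjusted p = 0.936). The exporters of zinc into vesicles, Slc30a4, Slc30a5 and Slc30a6, the copper importer Slc31a1, the zinc importer Slc39a1 and the magnesium transporters Slc41a2 and Slc41a3 had no call where they were read. Over the 9 metal ion members read between meniscus and cartilage the differences ran from -0.38 to 0.46, 1 did not overlap (11.1%, against 26.2% of all features) and 0 were called by limma, with 0 at an unadjusted p under 0.05. Over the 9 read between ligament and cartilage they ran from -0.91 to 0.39 relative to the median gene, with 3 above 0 and 6 below, and with 2 above and 7 below as tested. The ranges were separate for 4 of 7 metal ion members read between meniscus and ligament (57.1%, against 32.5% of all features), all higher in meniscus. Between ligament and cartilage they were separate for 5 of 9 (55.6%, against 34.9%), all lower in ligament, of which Slc39a10 and Slc41a2 were above background on no ligament array.

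The mitochondrial carriers gave no call among the members read. Slc25a4, an ADP/ATP exchanger of the inner membrane, stood at 9.32, 9.48 and 9.26 in meniscus, 9.16, 9.36 and 9.42 in cartilage and 9.62, 9.29 and 8.50 in ligament. Slc25a5, another ADP/ATP exchanger, stood at 8.85, 9.37 and 9.27 in meniscus, at 8.79, 8.80 and 8.80 in cartilage and at 9.17, 9.11 and 7.71 in ligament. Meniscus lay above cartilage for Slc25a5 on every array by a mean of 0.37, which was not called (limma adjusted p = 0.806), and all tissues overlapped for Slc25a4. Of the 11 Slc25 members read between meniscus and cartilage 10 had a difference above 0 (among them the peroxisomal Slc25a17, at 0.10). The share above 0 was 50.7% over all features. Differences of the 11 ran from -0.36 to 0.50 with a median of 0.29, and that of Slc25a4, at 0.04, changed sign under 4 of 19 alternatives. Of the 11, 0 were called by limma, also with 0 at an unadjusted p under 0.05. Between meniscus and ligament 2 of 8 were above 0 relative to the median gene and 5 of 8 as tested, and between ligament and cartilage 5 of 7 and 3 of 7, so the balance of signs turned with the scaling.

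Several mitochondrial carriers had reached the level in only some tissues. Slc25a14, an uncoupling protein relative, stood at 7.23, 6.47 and 6.65 in meniscus, at 6.98, 5.96 and 6.46 in cartilage and at 4.86, 4.53 and 5.56 in ligament. Slc25a44, a branched-chain amino acid carrier, stood at 6.65, 7.08 and 6.38 in meniscus, at 6.02, 6.81 and 6.23 in cartilage and at 4.45, 5.62 and 4.80 in ligament. Neither was above background on any ligament array, and no ligament array reached the range of the other tissues. Slc25a14 was at least 1.54-fold higher in meniscus and at least 1.27-fold higher in cartilage than in ligament, relative to the median gene. For Slc25a44 the same bounds were at least 1.46-fold and at least 1.17-fold higher.

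Slc25a12, an aspartate and glutamate exchanger of the malate-aspartate shuttle, ran the opposite way and had reached the level in ligament alone. It stood at 5.87, 5.51 and 5.26 in meniscus, at 4.82, 5.99 and 4.96 in cartilage and at 6.69, 7.09 and 6.03 in ligament, above background on 2 ligament arrays. Every ligament array lay above every meniscus and cartilage array. Slc25a40, a mitochondrial glutathione carrier, had reached the level in cartilage alone and stood at 5.35, 5.27 and 5.29 in meniscus, at 6.98, 5.83 and 6.44 in cartilage and at 5.96, 6.23 and 5.80 in ligament. Its meniscus arrays lay below all others, and the difference from ligament, where it was read, was -0.96 relative to the median gene and was not called (limma adjusted p = 0.149). Slc25a42, a coenzyme A carrier, was the member that did not pass the detection filter: the highest probe means in the value table were 103.4 for meniscus, 109.7 for cartilage and 300.0 for ligament, with a probe detected on 0, 1 and 2 arrays.

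The Slc35 family held the second called member that was lower in meniscus than in ligament. Slc35b2 carries the sulphate donor PAPS into the Golgi, where it serves the sulphation of proteoglycans. It stood at 6.56, 6.99 and 7.10 in meniscus, at 7.56, 7.79 and 7.34 in cartilage and at 7.64, 7.59 and 7.86 in ligament. Each meniscus array lay below all arrays of the other tissues, which overlapped with each other. The tested difference between meniscus and ligament was -0.82 ± 0.23 (log2, SE, limma adjusted p = 0.0462). Relative to the median gene it was -1.08, or 2.12-fold lower in meniscus. Leaving out any 1 of the 9 arrays took the adjusted p above 0.05, and it reached 0.167 over the alternatives. The difference between meniscus and cartilage was -0.68 and was not called (limma adjusted p = 0.279). Slc35b3, the other PAPS carrier, stood at 6.95, 5.58 and 6.54, at 6.17, 6.16 and 6.96 and at 4.75, 5.72 and 6.04 in meniscus, cartilage and ligament, with meniscus and cartilage overlapping.

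Slc35e3, a family member with no established substrate, stood at 7.29, 7.42 and 7.44 in meniscus, at 8.24, 8.81 and 8.09 in cartilage and at 6.23, 6.26 and 6.92 in ligament. No tissues overlapped, with cartilage highest and ligament lowest, and the gene reached the level in meniscus and cartilage. The difference between meniscus and cartilage was -0.99 ± 0.27 (log2, SE) and was not called (limma adjusted p = 0.164). Slc35f5 stood at 8.98, 8.88 and 9.36 in meniscus, at 8.70, 8.83 and 8.69 in cartilage and at 9.34, 8.19 and 8.64 in ligament, higher on every meniscus array than on every cartilage array by a mean of 0.33 (limma adjusted p = 0.773). The UDP-N-acetylglucosamine carrier Slc35a3, the ATP carrier of the endoplasmic reticulum Slc35b1, and Slc35a4, Slc35e1 and Slc35e2 overlapped in every comparison.

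Among the carriers of lipids and choline, Slc44a1 was called lower in ligament than in cartilage. Slc44a1 takes up choline, the precursor of phosphatidylcholine. It stood at 8.19, 7.94 and 7.75 in meniscus, at 8.36, 8.25 and 8.26 in cartilage and at 7.42, 7.58 and 7.19 in ligament. No tissues overlapped for the used probe, with ligament lowest. The tested difference between ligament and cartilage was -0.89 ± 0.21 (log2, SE, limma adjusted p = 0.0225). Relative to the median gene it was -0.65, or 1.57-fold lower in ligament, and that smaller difference was not tested. Without any 1 of the cartilage arrays the adjusted p passed 0.05, with 0.0706 the highest over the alternatives. A second detected probe of Slc44a1 was above background on 2 ligament arrays. It stood at 7.38, 7.47 and 7.35 in cartilage and at 5.45, 7.50 and 7.52 in ligament. On that probe 2 ligament arrays lay above every cartilage array, and the mean difference of -0.58 came from ligament replicate 1. Meniscus stood between the other tissues, and neither of its differences was called (limma adjusted p = 0.645 against cartilage and 0.105 against ligament).

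Slc44a2, a choline transporter-like protein, stood at 7.94, 8.76 and 8.41 in meniscus, at 8.61, 8.26 and 8.77 in cartilage and at 6.31, 7.84 and 8.02 in ligament. Ligament lay below cartilage on all arrays without a call (limma adjusted p = 0.103). Slc10a7, whose loss causes a skeletal dysplasia in people, reached the level in cartilage alone and stood at 5.41, 6.17 and 5.93 in meniscus, at 6.66, 6.40 and 6.15 in cartilage and at 4.81, 4.72 and 4.81 in ligament, where it was not above background. It was called higher in meniscus than in ligament (limma adjusted p = 0.0259), no fold is given because the bound was under 1, and the call was lost under 8 of 16 alternatives. Slc10a7 passed the detection filter through meniscus and cartilage and not through ligament, which favoured that direction. A second detected probe of Slc10a7 gave 5.55, 5.40 and 5.73, then 6.08, 6.54 and 6.26, then 4.65, 4.78 and 4.90, in the same order of tissues. The fatty acid transport proteins Slc27a3 and Slc27a6 overlapped between all tissues. All 4 lipid and choline members read between meniscus and ligament had lower values in ligament, both as tested and relative to the median gene. Slc10a7 is among these 4, with its direction favoured by the detection filter. The same held for all 3 read between ligament and cartilage. Of all features, 48.3% were higher in meniscus than in ligament relative to the median gene, and 50.3% were higher in ligament than in cartilage. These counts rest on few genes.

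Of the carriers of inorganic ions, Slc12a2 had closely spaced arrays in each tissue. Slc12a2 is the sodium, potassium and chloride cotransporter of the plasma membrane that serves cell volume. It stood at 11.31, 11.43 and 11.30 in meniscus, at 10.82, 11.01 and 11.02 in cartilage and at 11.10, 11.23 and 11.10 in ligament. No tissues overlapped and no difference was called (limma adjusted p = 0.474, 0.507 and 0.504). Another probe of Slc12a2 gave 8.17, 8.0 and 7.99 in meniscus, 7.74, 7.33 and 7.03 in cartilage and 8.52, 8.36 and 8.52 in ligament, so that ligament and not meniscus was highest. The remaining detected probe, above background on no ligament array, had means of 5.62, 5.09 and 4.80 in meniscus, cartilage and ligament.

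Slc4a2, a chloride and bicarbonate exchanger that sets cell pH, reached the level in meniscus and cartilage. It stood at 7.69, 7.20 and 7.20 in meniscus, at 7.38, 7.57 and 7.45 in cartilage and at 5.91, 6.44 and 4.70 in ligament, and all ligament arrays lay below the others. Slc12a3, a sodium and chloride cotransporter best known from the kidney, reached the level in cartilage and ligament and stood at 5.77, 5.70 and 5.96, at 6.33, 6.16 and 6.09 and at 6.21, 6.99 and 6.58 in meniscus, cartilage and ligament. Its meniscus arrays lay below all others. Slc26a7, an anion exchanger and the member of inorganic anions, reached the level in meniscus and ligament and stood at 7.40, 7.91 and 7.38 in meniscus, at 5.45, 5.28 and 6.40 in cartilage and at 5.81, 7.47 and 6.01 in ligament. Meniscus lay 1.85 above cartilage on the log2 scale with no overlap, a value given without a p because meniscus reached the level and cartilage did not. Against ligament, where 1 array lay within the meniscus range, the difference was 0.87 relative to the median gene and was not called (limma adjusted p = 0.138), and it was called without ligament replicate 2.

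**Figure D4:**
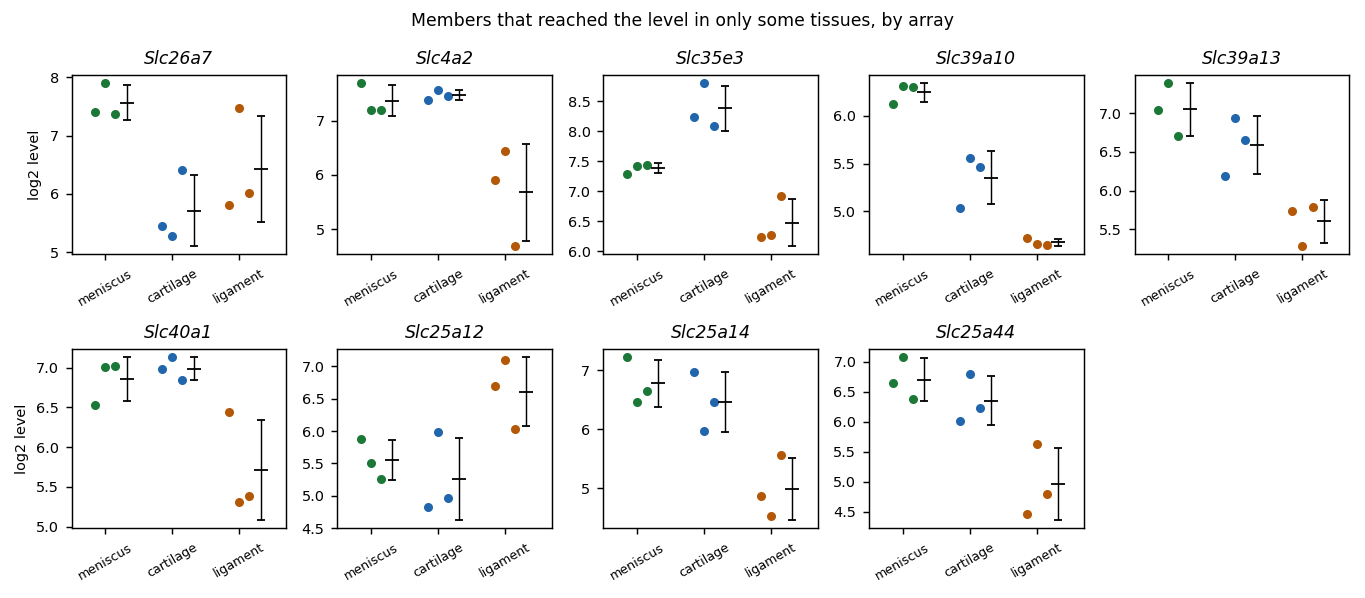
Normalized log2 level (y axis, separate for each gene) of 9 members that reached the level in only some of the tissues, on each of the 3 meniscus, 3 cartilage and 3 ligament arrays, with the mean and SD beside the points. Slc26a7 is highest in meniscus, Slc35e3 in cartilage and Slc25a12 in ligament, and the ligament points of Slc4a2, Slc39a10, Slc39a13, Slc40a1, Slc25a14 and Slc25a44 lie below the points of the other tissues.

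Carriers of sugars and carboxylates were few. Slc50a1, a sugar transporter of the SWEET family, stood at 8.16, 8.10 and 8.09 in meniscus, at 8.64, 8.17 and 8.67 in cartilage and at 9.49, 7.55 and 5.39 in ligament, so that ligament spanned the range of the other tissues. Slc16a9, a monocarboxylate transporter relative, reached the level in cartilage alone and stood at 5.91, 5.87 and 6.13 in meniscus, at 7.47, 6.63 and 6.93 in cartilage and at 6.33, 6.59 and 5.04 in ligament. Its cartilage arrays lay above all others. Slc2a10, a glucose transporter relative whose loss causes arterial tortuosity in people, was at 5.49, 5.74 and 5.40, at 7.04, 5.60 and 5.39 and at 5.11, 5.28 and 5.83, with 1 cartilage array apart from the other 8.

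Among the carriers of vitamins, nucleosides and organic ions, Slc18b1 was called between meniscus and ligament, in a direction that the detection filter favoured. Slc18b1 loads polyamines into vesicles. It stood at 6.12, 6.06 and 6.13 in meniscus, at 6.15, 6.0 and 6.49 in cartilage and at 4.38, 4.35 and 4.30 in ligament, where it was not above background. Meniscus and cartilage overlapped, and ligament lay below both. Slc18b1 was called higher in meniscus than in ligament (limma adjusted p = 0.00217). Its bound of 1.16-fold did not exceed the difference of the median gene, so no fold relative to that gene is given. The adjusted p was 0.0216 or lower under 16 of 16 alternatives. Slc18b1 and Slc10a7 passed the detection filter through meniscus and cartilage and not through ligament, so the filter itself favoured that direction.

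Slc29a1, the equilibrative nucleoside transporter, stood at 6.85, 6.54 and 6.42 in meniscus, at 8.09, 7.80 and 7.63 in cartilage and at 7.78, 4.54 and 6.27 in ligament. Cartilage lay above meniscus on all arrays by 1.24 ± 0.65 (log2, SE), without a call (limma adjusted p = 0.548). With the 6 meniscus and cartilage arrays alone the difference was called, as was that of Slc1a3. Slc19a2, the thiamine transporter, reached the level in meniscus and cartilage, stood at 7.15, 7.60 and 7.16, at 7.19, 6.94 and 6.95 and at 7.31, 6.04 and 5.39 in meniscus, cartilage and ligament, and overlapped throughout. Slc18a2, the vesicular monoamine transporter, overlapped between all tissues as well.

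The order of the tissues differed from member to member. Of the 35 members that reached the level everywhere, 11 ran cartilage, meniscus, ligament from high to low, 7 ran meniscus, cartilage, ligament, and the other 17 were spread over the 4 remaining orders. Ligament was lowest for 18 of the 35 (51.4%) and for 54.3% of all features. The arrays of 16 of the 35 overlapped in every comparison (45.7%), so that the order of their tissue means does not exceed the spread between arrays. Of the same 35, the arrays of 4 did not overlap in any of the 3 comparisons (11.4%, against 5.37% of all features): Slc12a2, Slc1a4, Slc39a7 and Slc44a1. These ranges are of the used probe, and other detected probes of Slc39a7 and Slc44a1 overlapped between ligament and cartilage. So did another detected probe of Slc12a2, which was above background on no ligament array. Its remaining detected probe was higher in ligament than in meniscus, the reverse of the used probe.

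The spread between ligament arrays was wide for many members. The SD exceeded 1 in ligament for 10 of the 61 members, in meniscus for 1 (Slc41a2) and in cartilage for 0. Slc25a38, a mitochondrial glycine carrier needed for haem synthesis, stood at 8.49, 8.37 and 8.26 in meniscus, at 7.82, 8.45 and 7.64 in cartilage and at 9.30, 8.81 and 4.91 in ligament. Its ligament mean was 0.30 below that of cartilage before adjustment for the median gene, and without ligament replicate 3 it was 1.09 above (limma adjusted p = 0.0357). Of 17 members with several detected probes, the probes disagreed in sign for 3 between meniscus and cartilage, for 10 between meniscus and ligament and for 8 between ligament and cartilage.

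Genes that work with the carriers were looked up in 4 lists, none of which was tested as a set. Over all features, limma called 0.655% between meniscus and cartilage, 9.15% higher in meniscus than in ligament and 11.7% lower in ligament than in cartilage. Of 11 tested genes of amino acid response and use, limma called 0 between meniscus and cartilage. Glul, which makes glutamine, was called higher in meniscus than in ligament and lower in ligament than in cartilage. Its tested differences were 1.28 and -1.39 (limma adjusted p = 0.0306 and 0.0201), and relative to the median gene they were 1.01 and -1.16. Glul was above background on 1 ligament array. Atf4, the transcription factor of the amino acid response, had means of 9.95 ± 0.05, 9.91 ± 0.14 and 9.60 ± 0.16 (SD, n = 3) in meniscus, cartilage and ligament and was not called. Of 10 tested partners of transporters, Atp1b1, a subunit of the sodium pump, and Vdac2, a pore of the outer mitochondrial membrane, were called lower in ligament than in meniscus and cartilage, and 0 were called between meniscus and cartilage. Atp1b1 was above background on no ligament array and passed the detection filter through the other tissues, which favoured that direction. Of 9 tested genes of iron, zinc and copper handling, the copper chaperone Atox1 was called, higher in meniscus than in ligament by 2.24 as tested (limma adjusted p = 0.0207). Relative to the median gene the difference was 1.97.

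The list closest to Slc35b2 covered the supply of sulphate donors and nucleotide sugars. Of its 8 tested genes, limma called 0 between meniscus and cartilage, 2 higher in meniscus than in ligament and 3 lower in ligament than in cartilage, with median differences of -0.23, 0.44 and -1.01. Over all features 9.15% were called higher in meniscus than in ligament and 11.7% lower in ligament than in cartilage. Papss2, which makes PAPS, had means of 7.45 ± 0.21 in meniscus, 8.77 ± 0.52 in cartilage and 7.19 ± 0.12 in ligament (SD, n = 3). Ugdh, which makes UDP-glucuronate, had 7.75 ± 0.19, 7.98 ± 0.01 and 6.39 ± 0.35, and Uap1, which makes UDP-N-acetylglucosamine, was above background on no ligament array. Papss2 and Ugdh were thus called lower in ligament than in cartilage (limma adjusted p = 0.00770 and 0.00381). Uap1 was called as well, but it passed the detection filter through the other tissues, which favoured that direction. Slc35b2 was 0.37 higher in ligament than in cartilage relative to the median gene. Its tested difference of 0.14 was not called (limma adjusted p = 0.721). Of the other 294 solute carrier symbols, 35 were tested, of which 1 was called between meniscus and cartilage, 4 between meniscus and ligament and 5 between ligament and cartilage. These shares were 2.86%, 11.4% and 14.3%, against 0.655%, 12.7% and 16% of all features. Among those called were Slc8a1, Slc2a1, Slc9a3r1, Slc16a3 and Slc26a2, which had been set aside by name.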

How the data were processed

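RNA of embryonic day 16 meniscus, articular cartilage and cruciate ligament was extracted, amplified and hybridised to Illumina bead arrays, 3 per tissue, per the labels' protocols. The deposited scanner tables hold a signal intensity and a detection p-value for each probe and array, and the authors' deposited value table holds a processed intensity on a linear scale, with no centring found and a method not given in the sources used here. Per the submitters' processing notes the tool was GenomeStudio without a version.

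Scanner rows carry no gene name. All 45281 were matched to rows of the value table by their ranks on the 9 arrays (median largest rank difference 96, against 4549.5 to the second nearest row), and 34885 probes then had 1 symbol, 18 several and 10378 none in the platform annotation. Signals were corrected with neqc of limma 3.58.1 (R 4.3.3), using an offset of 16 and negative controls estimated from detection p-values, quantile normalized over 9 arrays and log2-transformed. Probes were kept where each of the 3 arrays of some tissue had a detection p below 0.01 (12538 of 45281), and the brightest kept probe of a gene was used, which left 9166 features (7234 named genes, 1932 unnamed probes). Group means were fitted over the 9 arrays with lmFit and eBayes, after a test on simulated data, and a feature was called at a Benjamini-Hochberg adjusted p under 0.05. Where the used probe was not above background in a tissue, the fold is a bound: the bright tissue's mean against, per array, the higher of the lowest detected signal and the probe's own, with no fold where that was under 1, and is given relative to the median named gene against ligament. The number of arrays limits the precision. An exact permutation test of 3 against 3 arrays cannot go below p = 0.1, so none is given.

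The members, lists and substrate classes were chosen with earlier results of these data known. Genes named are the called members, the brightest member and the member of the largest difference in each class and tissue or comparison, those around each level, those not above background, and called or bright list genes. Slc25a5, Slc38a2, Slc39a7, Slc35b3, Slc25a38 and Slc12a3 and the second probes were described in full after their values were seen. Members alike in pattern over arrays were not ranked, because the arrays fall into tissues. Alternatives changed the background correction, the normalization, the filter, the probe, the arrays in the fit, the weights, a replicate block and each array in turn.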

Additional observations from a re-analysis of the deposited data

How the results depend on the processing

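The count of called members moved with the samples in the fit and with the spread assumed. Between meniscus and cartilage, 1 member was called (limma), against 0 with no detection filter, 3 with only those 2 tissues in the fit, 4 with array weights, 3 with the 6 arrays of both tissues alone and 4 in the authors' value table, and leaving out 1 array gave 0 to 2. Between meniscus and ligament 4 were called, against 1 with only those 2 tissues in the fit and 2 with array weights, and leaving out 1 array gave 1 to 4. Between ligament and cartilage 2 were called, against 4 with probes detected on all 9 arrays, 4 with no filter, 0 with only those 2 tissues in the fit and 0 with array weights, and leaving out 1 array gave 0 to 4. Array weights were 0.338 to 0.573 for the ligament arrays and 0.773 to 2.56 for the others. Normexp background, cyclic loess and the probe brightest in the value table left all 3 counts within 1.5 times. The cause of these shifts was not tested.

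Deviations of same-numbered arrays from their tissue means were weakly correlated (-0.03 to 0.15). Differently numbered arrays were not set beside them, so whether the numbers pair the samples is not known. A replicate block gave 0 calls between meniscus and cartilage, 1 between meniscus and ligament and 1 between ligament and cartilage. Of 76 differences of members described, 22 had the other sign under at least 1 alternative, and 1 of them was called there: Slc25a38 reversed between ligament and cartilage without ligament replicate 3, from -0.30 to 1.09, and was -1.12 without ligament replicate 1. The remaining 21 were not called with the other sign, among them Slc50a1 between ligament and cartilage, at -1.02 and at 0.02 without ligament replicate 3. Slc18b1 was called under 16 of 16 alternatives, Slc44a1 under 12 of 17, Slc6a15 under 11 of 17, Slc1a4 under 10 of 19, Slc11a1 under 10 of 17, Slc10a7 under 8 of 16 and Slc35b2 under 5 of 17. Signal over background limits ligament most, where 8 members were not above it on any array.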
